A study of Mus musculus with 1536 samples.

Results

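The genes described here are 42 immediate early and dissociation response genes, out of 23168 genes in the expression matrix of adult lymphatic endothelial cells (LECs) from the nasopharyngeal mucosa of the mouse. They were taken by symbol from a list, with no cut on their level, and all 42 are in the matrix. The list was chosen with earlier results of these data known, so contrasts with other genes are descriptions only. By role they are 7 subunits of the AP-1 transcription factor, 13 other transcription factors, 8 inhibitors of signalling, 5 genes of RNA decay and growth control and 9 genes of survival, stress and other functions. The cells came from C57BL/6J mice of both sexes at 10–12 weeks of age. They had no treatment, transgene or deletion that the sources name. Tissue from 30 mice was pooled, digested with collagenase IV, dispase and DNase I for 30 min at 37 °C, and CD31+PDPN+ cells were sorted singly. Smart-seq3, which reads whole transcripts of cells in separate wells, gave the libraries. The labels tie no cell to a mouse or plate, so the cells, about 840, count as 1 sample, and no p-value is given. The LEC markers *Prox1* and *Flt4* were found in 97.7% and 99.8% of them. Standard deviations (SD) and correlations describe these cells, and intervals cover counting error only.

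Immediate early genes are transcribed within minutes of a stimulus such as a growth factor, stretch or cytokine, from factors that are already present in the cell, so their mRNA rises before any new protein is made. Many encode short-lived transcription factors, among them the Fos and Jun proteins that pair to form AP-1, while others encode phosphatases, SOCS proteins or RNA-binding proteins that shut the same signals down. Warm enzymatic digestion of tissue also induces them, which makes them a familiar signature of the isolation step in single-cell data. In these files the level in living tissue and the level after isolation cannot be told apart, since no cell was measured without digestion.

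To show what precedes the start of genes that moved together, the bases upstream of 7 of them are printed. A Spearman's rho of at least 0.5 with the mean of the other 41 genes was required, and 16 genes had it. Of these, 13 had an upstream window available, which *Egr1*, *Nfkbiz* and *Ier2* did not. The 7 are those whose stretch is nearly free of annotated exons, and 6 were left out. The sequences are from RefSeq on GRCm38 (the build also called mm10), from 250 bases before the start to the start or to the first exonic base, 5′ to 3′ on the strand of the gene. They lie at *Junb* chr8:84978749-84978998 (minus strand), *Jun* chr4:95052223-95052472 (minus strand), *Fosb* chr7:19310052-19310295 (minus strand), *Fos* chr12:85473640-85473889 (plus strand), *Btg2* chr1:134079156-134079405 (minus strand), *Nr4a1* chr15:101266596-101266845 (plus strand) and *Nfkbia* chr12:55492648-55492897 (minus strand). Capitals mark matches, on either strand, to the TATA box (TATAAA), the cAMP response element (TGACGTCA), its short form (TGACG, part of the former), an AP-1 site (TGANTCA), an EGR site (GCGTGGGCG), a STAT site (TTCNNNGAA), the CArG box or the NF-kB site.
Junb: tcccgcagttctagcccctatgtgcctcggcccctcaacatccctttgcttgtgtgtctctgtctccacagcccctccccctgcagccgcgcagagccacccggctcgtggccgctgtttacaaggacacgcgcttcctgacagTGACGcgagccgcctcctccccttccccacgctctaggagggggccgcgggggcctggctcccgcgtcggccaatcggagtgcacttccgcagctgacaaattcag
Jun: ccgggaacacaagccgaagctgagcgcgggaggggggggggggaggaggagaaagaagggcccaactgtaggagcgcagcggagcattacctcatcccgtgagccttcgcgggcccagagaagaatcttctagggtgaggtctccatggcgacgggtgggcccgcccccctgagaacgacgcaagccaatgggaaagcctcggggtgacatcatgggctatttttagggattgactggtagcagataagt
Fosb: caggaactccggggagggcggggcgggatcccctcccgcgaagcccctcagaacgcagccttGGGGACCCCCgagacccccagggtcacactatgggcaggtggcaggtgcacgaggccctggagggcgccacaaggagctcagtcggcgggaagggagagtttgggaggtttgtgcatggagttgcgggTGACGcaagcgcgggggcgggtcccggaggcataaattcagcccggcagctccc
Fos: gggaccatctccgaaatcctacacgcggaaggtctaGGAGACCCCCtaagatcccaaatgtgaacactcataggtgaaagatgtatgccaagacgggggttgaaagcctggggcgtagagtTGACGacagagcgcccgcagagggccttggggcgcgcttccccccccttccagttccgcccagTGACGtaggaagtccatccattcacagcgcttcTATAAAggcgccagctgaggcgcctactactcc
Btg2: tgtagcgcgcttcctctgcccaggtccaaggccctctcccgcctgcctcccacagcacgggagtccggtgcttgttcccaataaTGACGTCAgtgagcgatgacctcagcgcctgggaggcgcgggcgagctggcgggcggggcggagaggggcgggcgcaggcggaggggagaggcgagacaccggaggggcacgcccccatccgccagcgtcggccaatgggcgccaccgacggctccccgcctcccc
Nr4a1: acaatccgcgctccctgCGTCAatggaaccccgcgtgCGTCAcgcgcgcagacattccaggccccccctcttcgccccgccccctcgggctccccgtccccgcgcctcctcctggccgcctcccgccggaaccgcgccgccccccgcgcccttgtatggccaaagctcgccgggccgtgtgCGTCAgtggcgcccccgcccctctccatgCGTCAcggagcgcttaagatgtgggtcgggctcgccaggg
Nfkbia: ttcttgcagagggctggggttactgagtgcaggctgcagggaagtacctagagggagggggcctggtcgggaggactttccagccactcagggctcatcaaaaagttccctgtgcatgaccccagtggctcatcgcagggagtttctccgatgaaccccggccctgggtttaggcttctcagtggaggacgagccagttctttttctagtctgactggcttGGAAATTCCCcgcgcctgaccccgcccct
In *Fos* the TATA box began 33 bases before the start, a short cAMP response element 66 bases before it, with another farther upstream. *Btg2* held a full cAMP response element, and *Nr4a1* held 4 short ones, the nearest of them 40 bases before the start. *Jun* had no match to these letters in this window. Windows of 34 of the 42 genes were available, 51 in all since some genes have several starts, and windows of 1 gene can overlap. The short cAMP response element was in 25 of the 51 (49.02%), against 17.8% of all 32851 windows of the same length. This motif was added after the sequences had been seen. The full element was in 4 of the 51 (7.84%, against 1.55% of all), in *Btg2*, *Dusp1*, *Errfi1* and *Maff*. The NF-kB site was in 7 (13.7%, against 3.90%) and the TATA box in 10 (19.6%, against 12.4%). The CArG box, the site of serum response factor, was in 6 windows of 3 genes (11.8%, against 1.47%), and the AP-1 site in 3 (5.88%, against 6.75%). The STAT site was in 4 windows (7.84%, against 7.02%) and the EGR site in 1 (1.96%, against 0.536%). A match is a string of letters and no evidence of binding.

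The 42 genes were found widely. A gene counted as found in a cell with at least 1 read, and 33 of the 42 reached at least 50% of cells. Among them 10 reached at least 90%, while 5 others stayed under 25%. How many of all genes reach these cuts was not counted. The median share was 72.98% of cells over the 42 genes, against 33.8% over the 9655 genes found in at least 10% of cells. Over all 23168 genes it was 4.99%. A single cell held reads of between 7 and 41 of the 42 genes, with a median of 30. Depth touches these shares, since reads per cell ran from 7433 to 3524358 with a median of 350746. In cells thinned to 20000 reads each, which leaves out 51 shallower cells and keeps 93.9%, the median share was 57.02% and the median number of the genes found per cell was 25. Together the genes took a median of 2.86% of the reads of a cell, from 0.0206% in the lowest cell to 11.95% in the highest.

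**Figure D1:**
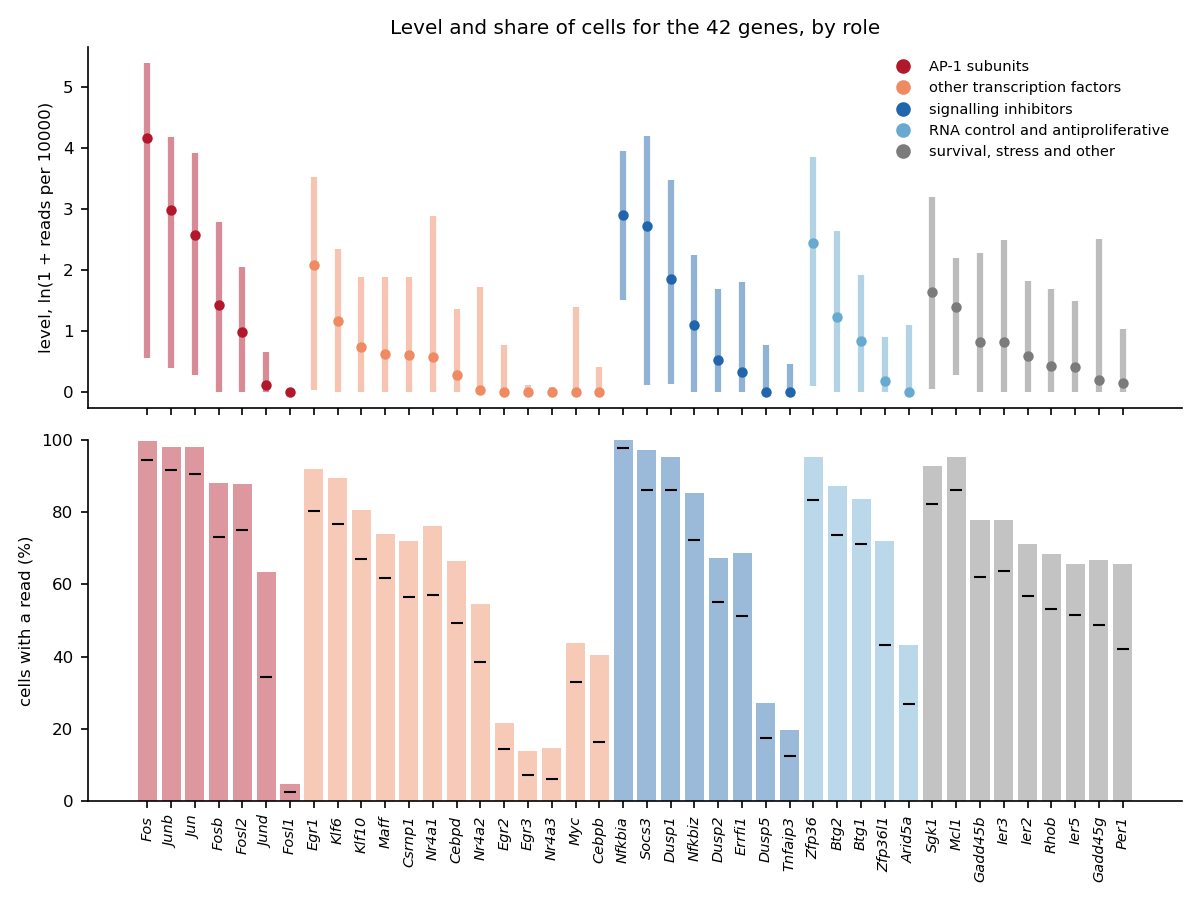
Level (top, deposited natural log of 1 plus reads per 10000, dot at the median and bar from the 10th to the 90th percentile of cells) and share of cells with a read (bottom, bars for all cells, dashes for cells thinned to 20000 reads) of the 42 genes, coloured by role. Within each role a few genes stand high, led by *Fos* among the AP-1 subunits, *Egr1* among the other transcription factors, *Nfkbia* and *Socs3* among the inhibitors and *Zfp36* among the genes of RNA control.

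Among the AP-1 subunits, *Fos* (chromosome 12 of GRCm38, 85473890 to 85477273) had the highest mean share of reads of all 23168 genes, at 8831 RPM (reads per 1000000 reads of the cell). Its level ran from 0 through a median of 63.4 to 534.6 reads per 10000, and only 2 cells had no *Fos* read. Per kb of exon it took 3754 RPM, written RPKM below, rank 6 of the 22272 genes with a known exonic length. *Junb* (median 18.8, highest 183.3 reads per 10000) and *Jun* (median 12.1, highest 215.4), whose products pair with Fos proteins, were found in 97.9% and 98.1% of cells. *Junb* had 1158.9 and *Jun* 626.7 RPKM. *Fosb* (88.005% of cells, median 3.16) and *Fosl2* (87.9%, median 1.67 reads per 10000) were lower, at 91.9 and 29.2 RPKM. *Jund*, the subunit usually described as constantly expressed, was found in 63.5% of cells, and in 34.3% after thinning. *Fosl1* was found in 41 cells (4.87%, 95% interval 3.52 to 6.55) and was the only 1 of the 42 below the 10% of cells set for the comparisons between cells.

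The other transcription factors were led by *Egr1*, a zinc finger factor induced through serum response factor, with reads in 91.9% of cells, a median of 6.99 and up to 83.4 reads per 10000. Its relatives *Egr2* (21.6% of cells) and *Egr3* (14.01%) were at 0 in most cells. The orphan nuclear receptors had the same kind of order, with *Nr4a1* in 76.2%, *Nr4a2* in 54.5% and *Nr4a3* in 14.8% of cells. *Nr4a1* was very uneven, from a median of 0.771 up to 89.3 reads per 10000. *Klf6* (89.4% of cells) and *Klf10* (80.5%), Krüppel-like factors, *Maff* (73.9%), a small Maf protein, and *Csrnp1* (72.1%) were found in most cells. *Cebpd* was found in 66.5%, *Myc* in 43.8% and *Cebpb* in 40.5%.

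Of the inhibitors, *Nfkbia*, which encodes the protein that holds NF-kB in the cytoplasm, was found in 99.9% of cells, with a median of 17.1 and its top value at 175.1 reads per 10000. *Socs3*, an inhibitor of cytokine receptors, was found in 97.03% (median 14.3, highest 170), and *Dusp1*, a phosphatase of MAP kinases, in 95.2% (median 5.38, highest 174.6). *Nfkbia* had 1447.3, *Socs3* 859.8 and *Dusp1* 371.6 RPKM. *Nfkbiz* (85.2% of cells), *Errfi1* (68.8%), an inhibitor of the EGF receptor, and *Dusp2* (67.2%) followed. *Dusp5* (27.1%) and *Tnfaip3* (19.6%), which encodes the ubiquitin-editing enzyme A20, were at 0 in most cells. The inhibitors thus held the most widely found of the 42 genes, *Nfkbia*, and 1 of the 5 found in under 25% of cells, *Tnfaip3*.

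The genes of RNA decay and growth control were led by *Zfp36*, which encodes tristetraprolin, a protein that destabilizes AU-rich mRNAs. It was found in 95.4% of cells, with a median of 10.4 and at most 138.4 reads per 10000. *Zfp36l1* (72.1% of cells, median 0.207 reads per 10000) was far lower in the same cells. *Btg2* (87.2%) and *Btg1* (83.7%), antiproliferative factors, came next, and *Arid5a* was found in 43.1%. In the last group, *Mcl1*, which encodes a short-lived survival protein of the Bcl2 family, was found in 95.1% of cells and *Sgk1*, a kinase, in 92.6%. *Ier3* and *Gadd45b* were each found in 77.9% of cells, and *Ier2*, *Rhob*, *Gadd45g*, *Ier5* and *Per1* in 65.6% to 71.1%. *Gadd45g* ranged from a median of 0.211 up to 80.02 reads per 10000, so a minority of cells carried most of its reads.

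The levels differed between cells more than those of most genes of like mean. Over the 9655 tested genes a cubic curve was fitted to the log10 of the squared coefficient of variation against the log10 of the mean, and 26 of the 41 tested members lay above the 90th percentile of distance from it, with a median percentile of 95.6. *Gadd45g* (99.6), *Nr4a1* (99.6) and *Dusp1* (99.4) were highest. Below the 50th percentile were 6 of the 41. They were *Jund* (1.53), *Zfp36l1* (2.68), *Cebpb* (4.18) and *Per1* (4.95), which varied less than nearly all genes of their mean, and *Mcl1* (36.6) and *Cebpd* (47.8).

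The mean of the 42 deposited values was used as a summary per cell, called the mean of the genes below. It ran from 0.0434 to 1.86, with quartiles of 0.624, 1.13 and 1.35. Its distribution had 2 peaks, with 57 cells between 0.4 and 0.5, 22 between 0.7 and 0.8 and 99 between 1.3 and 1.4. Below 0.6 lay 24.3% of cells (95% interval 21.5 to 27.4), and 68 cells lay between 0.5 and 0.7, so the border is not sharp. *Fos* had the same shape in single cells, at or below a deposited value of 1 in 13.5% of cells and above 4 in 54.3%. *Junb* was at or below 1 in 17.6% and above 4 in 14.96%. *Mcl1* also had a small pile of cells near 0, with 79 cells below 0.25 and 36 between 0.25 and 0.5, but its values lay lower and closer together, with 66.3% of cells above 1 and 0.356% above 3.

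**Figure D2:**
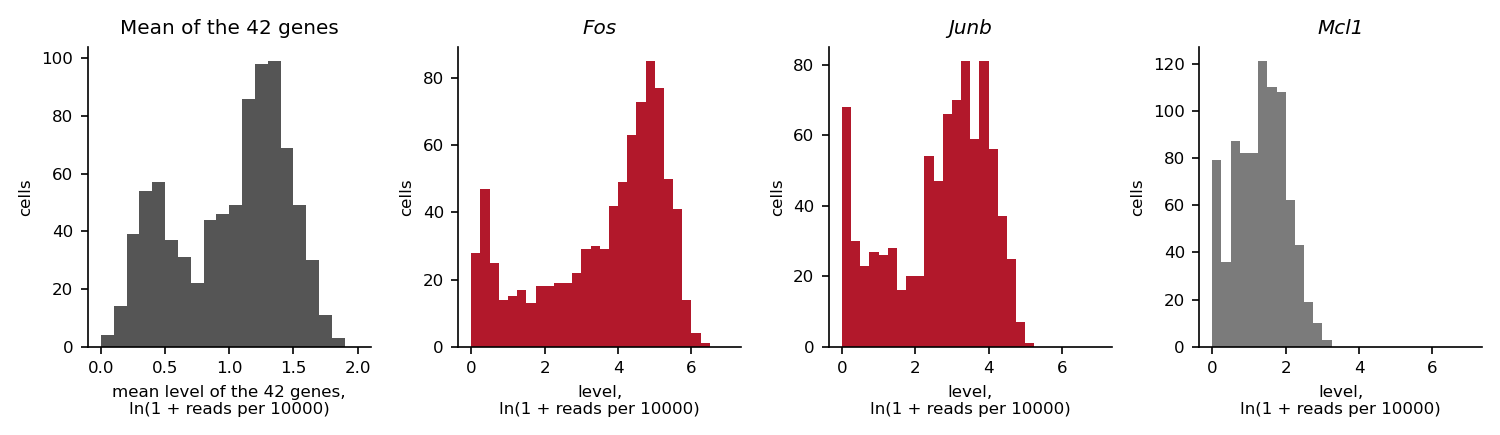
Histograms over all cells of the mean deposited level of the 42 genes and of the level of *Fos*, *Junb* and *Mcl1* (x axis, natural log of 1 plus reads per 10000; y axis, number of cells). The mean has a smaller peak with 57 cells between 0.4 and 0.5 and a larger one with 99 cells between 1.3 and 1.4, *Fos* and *Junb* also have cells near 0 apart from a broad high peak, and *Mcl1* has 79 cells below 0.25 and a peak between 1 and 2.

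Depth had little relation to this mean. Its Spearman's rho was 0.0731 with total reads, 0.163 with genes found and -0.301 with the mitochondrial share of reads, over cells of 1 pool that share depth and normalization. After thinning, rho was 0.0490, 0.146 and -0.318. When cells were put into 4 equal groups by reads, from fewest to most, 24.6%, 29.05%, 18.6% and 25.1% of cells had a mean below 0.6. The cells below 0.6 had a median of 285735 reads and 2.14% mitochondrial reads, and those at 0.8 or more had 399684 reads and 1.61%. The part of these differences in the result was not tested.

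The genes were high and low together over cells, in a graded way. Over all pairs of the 42, Spearman's rho ran from -0.0573 to 0.774 with a median of 0.181, and 22.4% of pairs had a rho of at least 0.3 and 45 pairs of at least 0.5. The highest were *Junb* with *Zfp36* (0.774), *Junb* with *Egr1* (0.766), *Jun* with *Junb* (0.733), *Junb* with *Socs3* (0.729) and *Fos* with *Jun* (0.725). All cells share their pool, depth and total, so rho has no p. Pairs of other genes were not counted, so these shares of pairs have no background beside them. After thinning, the highest rho was 0.764, the median 0.150 and the share of pairs at 0.3 or more 17.9%. Only 20 pairs had a rho below 0, and *Fosl1* with *Klf6* was the lowest.

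**Figure D3:**
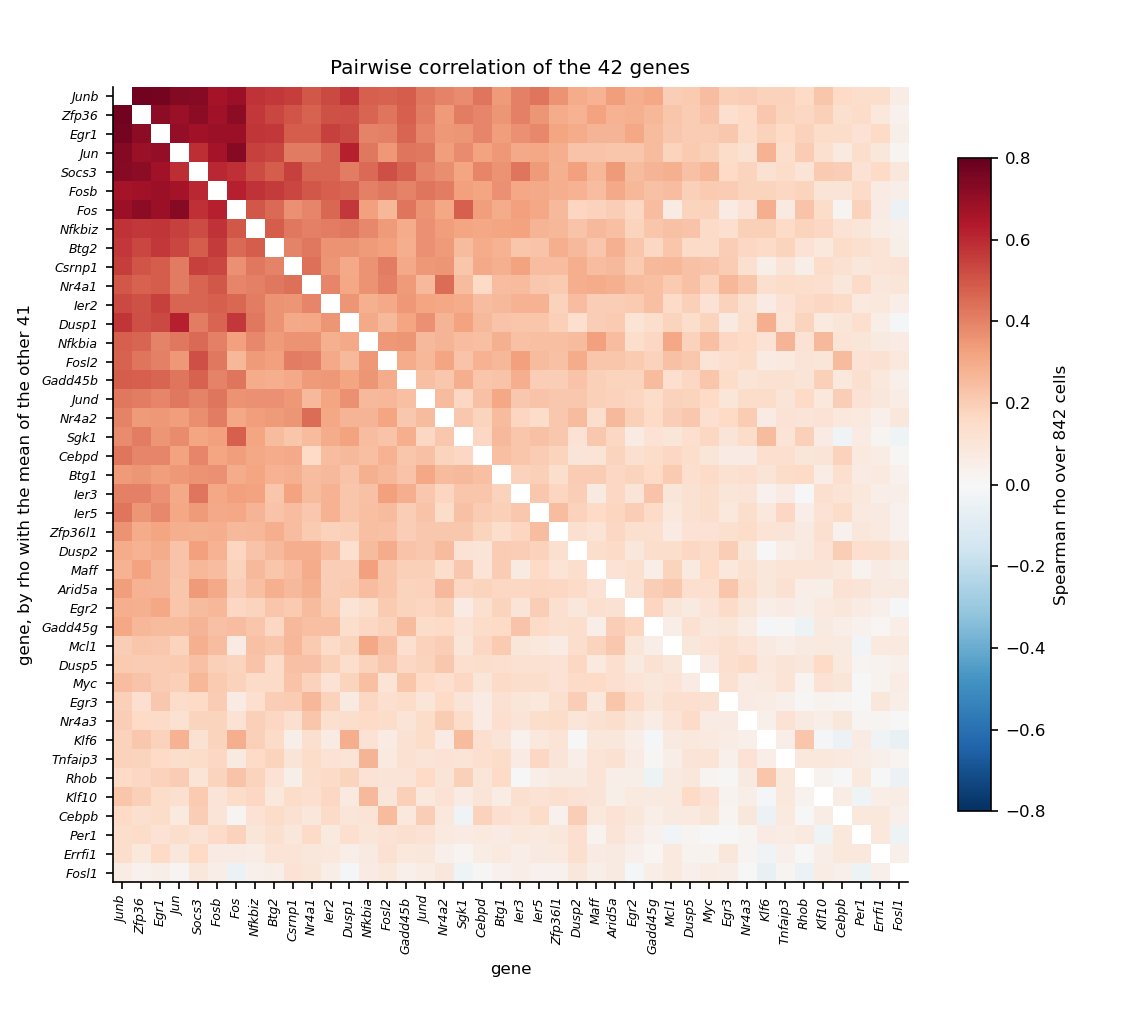
Spearman's rho over all cells for each pair of the 42 genes (colour, from -0.8 in blue to 0.8 in red), with genes on both axes ordered by their rho with the mean of the other 41. A block of 7 genes from *Junb* to *Fos* has the deepest red, and the colour fades towards *Fosl1*, with no block of negative values.

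Each gene was then set against the mean of the other 41. *Junb* (0.835), *Zfp36* (0.813), *Egr1* (0.793), *Jun* (0.751), *Socs3* (0.751), *Fosb* (0.740) and *Fos* (0.686) stood highest, and include 4 AP-1 subunits and 1 gene of each of 3 other roles. At the other end were *Fosl1* (0.0762), *Errfi1* (0.141), *Per1* (0.161), *Cebpb* (0.182) and *Klf10* (0.192). A gene found in few cells has little range for rho, but *Errfi1*, *Per1* and *Klf10* were found in 68.8%, 65.6% and 80.5% of cells. Among the 36 of the 42 genes found in at least 30% of cells, 27 had a rho of at least 0.3, and the background among the 5398 other genes found that widely was 1.87%. None of the 42 was at -0.3 or below, with a background of 0.0556%. The mean of the 7 AP-1 subunits had a rho of 0.852 with the mean of the other 35 genes, and 0.841 after thinning. Pairs of AP-1 subunits had a median rho of 0.419, pairs of other transcription factors 0.130, pairs of inhibitors 0.164, pairs in RNA control 0.282 and pairs in the last group 0.131. Over all roles, the median was 0.151 for pairs within a role and 0.187 for pairs between roles, so pairs within a role were higher only for AP-1 and RNA control.

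Among the genes outside the list whose level was most like the mean of the 42 were *Atf3* (rho 0.734), a stress-induced relative of AP-1, *Sertad1* (0.695), *Klf4* (0.679), *Rgs16* (0.678), *Ppp1r15a* (0.673), *Hspa8* (0.657), *H3f3b* (0.614), *Irf1* (0.577) and *Ifrd1* (0.548), among genes found in at least 30% of cells. *Ppp1r15a* encodes a phosphatase subunit of the integrated stress response and *Hspa8* a constitutive heat shock protein. Of 24 other immediate early genes found that widely, 15 had a rho of at least 0.3, with a median of 0.331, among them *Klf2* (0.538), *Cyr61* (0.453) and *Id3* (0.426), while *Thbs1* was at -0.0106. Of 10 heat shock genes 5 did, with *Dnajb1* at 0.537 and *Hspd1* at 0.0219. Of 7 genes of the integrated stress and p53 responses 2 did, *Atf4* (0.533) and *Cdkn1a* (0.464). Of 11 inflammatory NF-kB targets 3 did, *Irf1*, *Icam1* (0.388) and *Rel* (0.370). None of 19 upstream kinases and factors did (median 0.0709, highest *Mef2a* at 0.191), nor any of 7 glucocorticoid targets (median 0.0241). The background for all these counts was 1.87% of the 5398 genes outside the 42 found that widely. A count of none in lists this small is near that share and is no contrast with it.

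The number in the column name of a cell, whose meaning the sources used here do not give, moved with the genes. *Xist*, the transcript of the inactive X chromosome, was found in few cells of the lower numbers, and the split between lower and higher numbers was set after that had been seen. Of the 570 cells with lower numbers, 2 had *Xist* reads without a read of 4 Y chromosome genes, 75.96% had reads of a Y gene without *Xist*, 20 had both and 20.2% neither. Of the cells with higher numbers, 32.3% of all, 61.03% had *Xist* alone, 17.3% (47 cells) a Y gene alone, 32 cells had both and 27 neither. The median of the mean of the genes was 1.196 in the lower numbers and 0.874 in the higher, and 18.4% (95% interval 15.3 to 21.9) against 36.8% (31.02 to 42.8) of cells lay below 0.6. Of the 41 tested genes, 24 were at least 1.5-fold lower in the higher numbers and none was as much higher, where the background over 9655 genes was 5.26% lower and 2.15% higher. *Csrnp1* (log2 ratio -1.29), *Nr4a1* (-1.28), *Fosl2* (-1.19) and *Nr4a2* (-1.17) differed most, and *Egr1* had a median of 8.83 reads per 10000 in the lower and 3.16 in the higher numbers. Just inside the threshold were *Junb*, *Mcl1* and *Dusp5* (all at -0.59) and just outside it was *Btg2* (-0.55). *Fos* did not move in its median, at 63.4 and 63.5 reads per 10000 (log2 ratio of means -0.20), nor did *Klf6* (-0.10), *Ier3* (-0.03) and *Per1* (0.10) reach the threshold in their means.

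**Figure D4:**
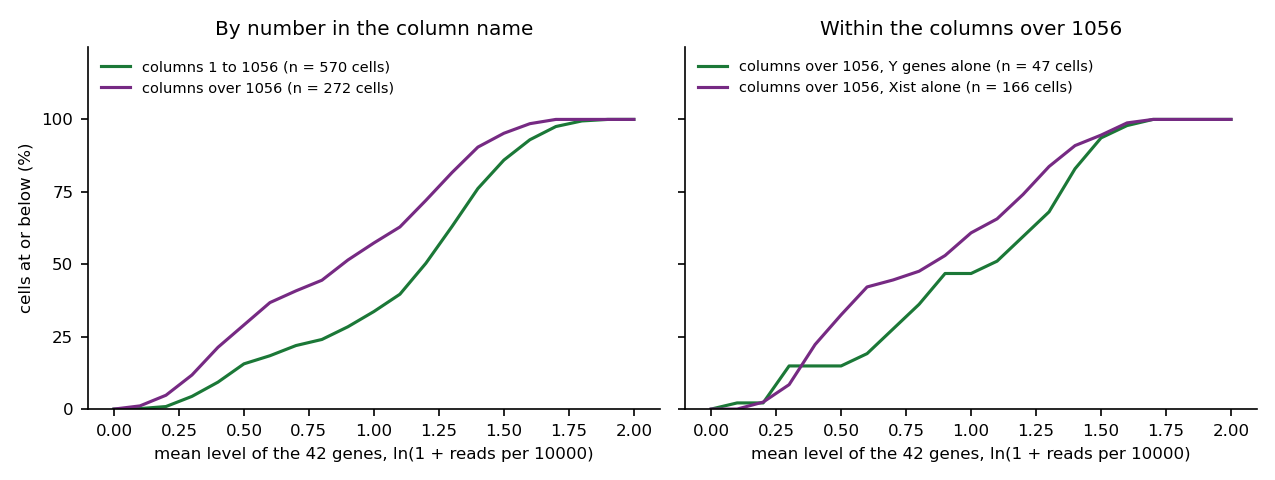
Cumulative share of cells (y axis, percent) by the mean deposited level of the 42 genes (x axis, natural log of 1 plus reads per 10000), for cells with lower and higher column numbers (left) and, within the higher, for cells with reads of a Y chromosome gene alone or of *Xist* alone (right). The line of the higher numbers lies to the left, with 36.8% against 18.4% of cells below 0.6, and within the higher numbers 42.2% of cells with *Xist* alone and 19.1% with a Y gene alone lie below 0.6.

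Within the higher numbers, 42.2% (34.6 to 50.1) of the cells with *Xist* alone and 19.1% (9.15 to 33.3) with a Y gene alone had a mean below 0.6. Cells with a Y gene alone were at 17.3% (13.9 to 21.2) in the lower numbers. Their median of the mean was 1.204 in the lower and 1.06 in the higher numbers. The median also fell in cells with both signals, from 1.38 to 0.928, and with neither, from 1.157 to 0.835. Of the cells with neither, 21.7% (14.6 to 30.4) in the lower and 37.04% (19.4 to 57.6) in the higher numbers had a mean below 0.6. Since all but 2 of the cells with *Xist* alone have higher numbers, the sex signal and the range of numbers cannot be told apart for these cells. The median depth was 290954 reads for *Xist* alone and 547829 for a Y gene alone within the higher numbers, and the part of depth in this difference was not tested. Positive correlations among the genes were present in both ranges. Over all pairs the median rho was 0.161 in the lower and 0.187 in the higher numbers, and the shares of pairs at 0.3 or more were 17.1% and 26.5%. The 15 pairs with the highest rho had at least 0.599 and 0.743. They were picked by rho over all cells, which the ranges make up, so this is no separate check.

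To ask whether the response differs between kinds of LEC, cells with a deposited value over 1 for *Stab2*, *Fndc1* or *Cldn11* were each compared with all other cells. *Stab2* encodes a scavenger receptor for hyaluronan, *Fndc1* a protein with fibronectin type III domains and *Cldn11* a tight junction claudin. The gates held 31.2%, 16.9% and 17.9% of cells, with 11 to 22 cells shared by any pair and 40.3% of cells in none, and 52, 40 and 67 cells had values between 0.8 and 1.2. Values are the log2 ratio of mean reads per 10000 plus 0.1, and a gene counts as different at 1.5-fold or more, without a test since the cells are 1 sample. The mean of the genes was 0.979 ± 0.451 (SD over cells) with *Stab2* over 1 and 1.03 ± 0.427 in the other cells. It was 0.928 ± 0.443 and 1.03 ± 0.432 for *Fndc1* and 1.04 ± 0.443 and 1.01 ± 0.433 for *Cldn11*. Each difference of means is a fraction of the SD over cells. The distribution has 2 peaks, so medians are given too. They were 1.09 against 1.14 for *Stab2*, 0.948 against 1.15 for *Fndc1* and 1.16 against 1.12 for *Cldn11*. Below 0.6 lay 27.4% (22.1 to 33.2) of cells with *Stab2* over 1 against 22.97% (19.6 to 26.6) of the others, 32.4% (24.8 to 40.8) against 22.7% (19.7 to 26.001) for *Fndc1*, and 23.2% (16.7 to 30.7) against 24.6% (21.4 to 27.99) for *Cldn11*. Cells of low and high level were thus in every gate. The intervals cover counting error in 1 pool, so their overlap does not show whether the shares differ, which was not tested.

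**Figure D5:**
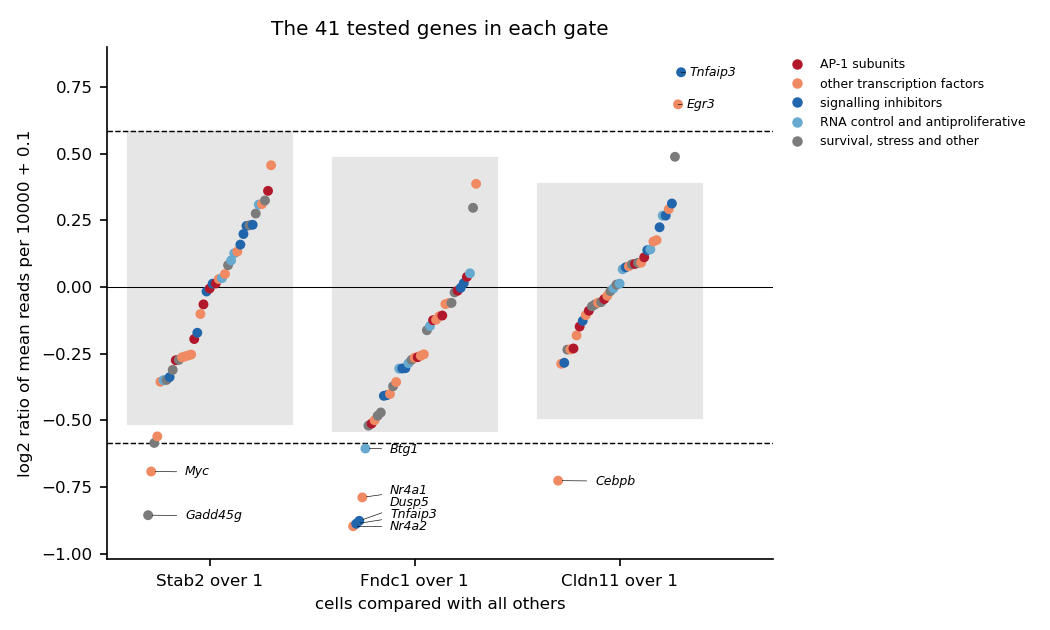
Log2 ratio of mean reads per 10000 plus 0.1 (y axis) of the 41 tested genes in cells with *Stab2*, *Fndc1* or *Cldn11* over 1 against all other cells, each dot 1 gene coloured by role and sorted within the gate. Grey boxes span the 5th to the 95th percentile of all tested genes and dashed lines mark 1.5-fold. Most dots lie inside the lines, 36 of 41 lie below 0 for *Fndc1*, and the genes past the lines are named.

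In cells with *Stab2* over 1, 2 of 41 genes were at least 1.5-fold lower and none was higher, with a background of 3.91% of genes lower and 4.91% higher. *Gadd45g*, a stress-induced relative of *Gadd45b*, had a mean of 2.47 ± 7.84 (SD over cells) reads per 10000 against 4.55 ± 9.28 in the other cells (log2 ratio -0.86), with medians of 0.0401 and 0.608. *Myc* had 0.632 ± 1.53 against 1.08 ± 2.31 (-0.69), and was found in 34.98% (95% interval 29.2 to 41.1) against 47.8% (43.7 to 51.998) of cells. Just short of the threshold were *Ier3* (-0.58) and *Maff* (-0.56), and at the other end stood *Nr4a2* (0.46) and *Fosl2* (0.36). In the lower column numbers *Gadd45g* was at -1.27 and *Myc* at -0.85, but in the higher numbers they were at 0.15 and -0.24. Of the genes that moved most closely together over cells, *Fos* was at -0.01, *Socs3* at 0.01 and *Egr1* at 0.05, while *Junb* was at -0.19, *Jun* at -0.27 and *Zfp36* at -0.35. The median over the 41 genes was -0.0057, against 0.03 over all genes. Of 29 tested other immediate early genes, 6 were higher and 2 lower.

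In cells with *Fndc1* over 1, 5 of 41 genes were at least 1.5-fold lower and none was higher, with a background of 3.92% lower and 2.81% higher. They were *Nr4a2* (-0.90), *Tnfaip3* (-0.89), *Dusp5* (-0.88), *Nr4a1* (-0.79) and *Btg1* (-0.61), that is 2 nuclear receptors, 2 inhibitors and an antiproliferative factor. *Nr4a1* had a mean of 3.50 ± 8.92 reads per 10000 against 6.12 ± 11.4, and *Nr4a2* 0.954 ± 2.46 against 1.86 ± 4.76, with reads in 40.8% (32.7 to 49.4) against 57.3% (53.5 to 60.98) of cells. *Dusp5* was found in 16.9% (11.1 to 24.1) against 29.1% (25.8 to 32.7). *Tnfaip3* was found in 19.01% against 19.7% of cells, with means of 0.110 and 0.288 reads per 10000. In all, 36 of the 41 genes were below 0 and the median was -0.26, where 47.2% of all genes were above 0 and their median was -0.02. *Fos* (0.04) and *Klf6* (0.39) were on the other side. The cells of the gate had more reads (median 460124 against 335356), and after thinning the median was -0.27. The median over the 41 genes depended on the gate cut. It was -0.034 with any *Fndc1* read, against -0.0069 over all genes, and -0.48 with a value over 2. By column number it was -0.16 in the lower and -0.32 in the higher numbers. The 41 genes were high and low together over cells, so those below 0 are not separate observations. *Nr4a1*, *Nr4a2* and *Btg1* were lower in both ranges of column numbers and in the cells below and above the median depth, with *Nr4a1* at -0.71 and -0.96 by column number and -0.81 and -0.77 by depth. *Btg1* was short of the threshold in the lower numbers (-0.55) and after thinning (-0.56). *Dusp5* and *Tnfaip3* were at -0.50 and -0.29 in the higher numbers, also short of it. Among other immediate early genes, 7 of 29 were lower and none higher (median -0.37), and 2 of 11 heat shock genes were lower.

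In cells with *Cldn11* over 1, 2 of 41 genes were higher and 1 lower, with a background of 1.54% higher and 2.91% lower. *Tnfaip3* had a mean of 0.452 ± 1.43 reads per 10000 against 0.216 ± 0.826 (log2 ratio 0.81) and was found in 26.5% (19.7 to 34.3) against 18.1% (15.3 to 21.2) of cells. *Egr3* (0.68) was found in 23.2% (16.7 to 30.7) against 12.01% (9.68 to 14.7), and *Cebpb* (-0.73) in 31.1% (23.8 to 39.2) against 42.5% (38.8 to 46.3). All of these are sparse, and in the higher column numbers *Egr3* was at -0.06 and *Cebpb* at -0.07, while *Tnfaip3* was at 0.87. The median over the 41 genes was 0.01, against -0.03 over all genes. *Tnfaip3* was the only gene past the threshold in more than 1 gate, lower with *Fndc1* and higher with *Cldn11*. The 3 comparisons share most of their other cells, so their values are given side by side only.

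Markers of other cell types were looked for in all cells. Of the immune markers, *Ptprc* and *Cd3e*, of leukocytes and T cells, were at 0 in all cells, which allows a share of up to 0.356%, while *Cd68* was found in 15.7%. At least 3 of the 4 blood endothelial markers in the matrix were found in 50 cells, 12 of them with a mean of the genes below 0.6 and 38 above. Of these 50 cells 32 had *Stab2* over 1, 2 *Fndc1* and 8 *Cldn11*. Of these markers *Emcn* was found in 94.2% and *Plvap* in 77.8% of all cells, *Sox17* in 4.99% and *Flt1* in 2.49%. A cell with both *Emcn* and *Plvap* needed only 1 read of another marker to be counted. The count therefore does not tell blood endothelial cells from LECs. The summed level of the 4 markers had medians of 7.31 reads per 10000 in cells below 0.6 and 6.73 in the others. At least 3 of 5 fibroblast markers were found in 2 cells, both at 0.6 or more and both with *Cldn11* over 1. No cell held 3 of the 5 immune markers, 3 of the 5 mural markers or 3 of the 4 Schwann markers in the matrix, and with 2 epithelial markers in the matrix this could not be asked of them. Highest summed levels were 262.2 reads per 10000 for immune and 134.6 for fibroblast markers, each in a cell at 0.6 or more. Some markers moved with the gates. The 2 tested blood endothelial markers had a median log2 ratio of 0.46 with *Stab2* over 1, -0.56 with *Fndc1* and -0.25 with *Cldn11*. *Kcnj8*, listed as a mural marker, was found in 39.7% of cells, where the other mural markers were found in 0.831% to 2.49%. It had a log2 ratio of 1.85 with *Stab2* over 1, -0.89 with *Fndc1* and -1.47 with *Cldn11*. The fibroblast marker *Dcn*, found in 12.4% of cells, had -0.15, -1.41 and 2.0 in the same order. The part of these markers in the results by gate was not tested, and the counts without cells holding 3 or more markers of 1 list are given in the closing section.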

How the data were processed

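Adult LECs were sequenced by Smart-seq3 and, per the labels and the methods, STAR (mm10) and featureCounts of Subread gave the authors their gene counts, which went through Seurat 4.1.0 after removing cells with fewer than 2000 genes or more than 10% mitochondrial reads. Each deposited value is a natural log, taken of 1 plus the reads per 10000 reads of the cell, as found from the values, although the methods name a log2 scale. Every value above 0 gave a whole read within 0.01 reads, so totals and thinned counts were taken from the recovered reads. The authors regressed out a dissociation score for their own clustering and left dissociation-induced genes out of their differential expression tests. The matrix used here holds the values before that regression, as the whole reads show.

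All cells are 1 pool and no test was run. Shares have 95% Clopper-Pearson intervals, which cover counting error only, since reads carry amplification and cells share their mice. The members and lists were chosen with earlier results of these data known. The genes named are the 42 genes, those of the lists, the genes that define the gates, genes that overlap the 42, and the 10 genes most like and 5 least like the mean of the 42. Of the 10, 1 is not reported here. Genes with reads in at least 10% of cells were compared between cells, with a pseudocount of 0.1 reads per 10000, and those in at least 30% were correlated with the mean. No doublet caller was run. The split of column numbers and the short cAMP response element were chosen after seeing the data. Gene positions and lengths are from GENCODE M21 and promoter stretches from RefSeq on GRCm38. Exons of 11 of the 42 genes overlap a gene on the other strand, among them *Jun*, *Junb*, *Dusp1* and *Zfp36*, and the strand setting of the counting is not given in the sources used here, so reads of such pairs cannot be told apart. The recovery of reads, the thinning, the ratios and the correlations were tested on simulated data. Python 3.11.15, NumPy 2.4.6, pandas 2.3.3, SciPy 1.17.1 and matplotlib 3.10.9 were used.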

Additional observations from a re-analysis of the deposited data

How the results depend on the processing

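The count of the 42 genes found in at least 50% of cells was 27 to 33 over 6 alternatives and 14 where a deposited value over 1 was required in place of any read. Pairs with a Spearman's rho of at least 0.3 were 17.1% to 26.5% of all, and the rho of the mean with total reads was 0.0405 to 0.107. The counts by gate rest on small numbers and moved more. For *Stab2* (2 genes as reported), 4 genes were counted without cells holding 3 or more markers of 1 other cell type (51 cells, 50 of them by the blood endothelial list, with 4.83% of all genes higher and 4.04% lower), 4 after thinning (5.58% and 4.76%), 4 against cells in none of the 3 gates (5.09% and 4.01%), 6 in the higher column numbers (9.65% and 6.72%) and 5 with a value over 2 (6.78% and 5.52%). The count was 1 with a pseudocount of 1 (0.725% and 1.02% of all genes) and 1 with any read of the gate gene (2.36% and 1.74%). It was 0 at 2-fold (1.08% and 1.55%) and 0 by the difference of mean log values (0.539% and 0.694%). *Myc* and *Gadd45g* were both in each count of 4 and of 5. In the higher numbers and with any read neither was counted. The 51 cells were mostly picked by markers found in most cells, so leaving them out does not test for blood endothelial cells. For *Fndc1* (5 genes) the count was 11 in the higher numbers (6.14% and 10.8%), 8 against cells in no gate (3.39% and 3.75%) and 19 with a value over 2 (50 cells, 2 genes higher and 17 lower, where 8.16% of all genes were higher and 10.6% lower). It was 1 with a pseudocount of 1 (0.456% and 0.445%) and 0 with any read (1.12% and 1.22%). At 2-fold it was 0 (0.425% and 0.767%) and by log values 2 (0.476% and 0.207%). Of the 5 genes reported, 3 were among the 11 of the higher numbers and 4 among the 19. For *Cldn11* (3 genes) the count was 7 in the higher numbers (7.29% and 10.9%) and 10 with a value over 2 (36 cells, 8.20% and 14.6%). It was 1 with any read (0.818% and 0.943%) and 0 with a pseudocount of 1 (0.135% and 0.114%). At 2-fold it was 0 (0.197% and 0.249%) and by log values 0 (0.104% and 0.0725%). Of the 3 genes reported, 1 was among the 7 of the higher numbers and 3 among the 10. In the higher numbers, *Gadd45g* by *Stab2* (0.15) and *Egr3* by *Cldn11* (-0.057) turned direction. The cause was not tested. The other alternatives, a filter on genes per cell, wells with both *Xist* and a Y gene left out, another total and no filter on low genes, kept each count within 1.5 times. No paired analysis was possible because all cells are 1 pool, and no replicate could be left out.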

Other observations

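The genes least like the mean of the 42 genes, among those found in at least 30% of cells, were *Gm23935* (Spearman's rho -0.32), *mt-Cytb* (-0.31), *mt-Nd4* (-0.30), *mt-Nd2* (-0.30) and *Laptm4a* (-0.29), and 3 of 5398 genes, which is 0.0556%, had a rho of -0.3 or below. The 3 mitochondrial transcripts encode subunits of the respiratory chain. Of the 9 genes of LEC identity, *Flt4* (-0.28), which encodes VEGFR3, and *Mmrn1* (-0.27) had the lowest values and *Prox1*, the transcription factor that sets LEC fate, the highest (0.07), with a median of -0.16. All values are relative to the total reads of a cell, of which the 42 genes took a median of 2.86%.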
